A study of Caenorhabditis elegans with 123 samples.

Results

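Mitochondrial ribosomal protein genes were followed through early embryogenesis of Caenorhabditis elegans. They were taken as the probe sets that the platform annotation maps to a single symbol starting with mrps- (small subunit) or mrpl- (large subunit) and a number. The brightest probe set stood for a gene with several. This gave 59 genes of the 17138 genes measured, 25 of the small and 34 of the large subunit. By the number in their names alone, 15 small (up to 21) and 21 large subunit genes (up to 36) were classed as bacterial-type. The other 10 and 13 were classed as mitochondria-specific. Sequence was not used for these classes, so single genes may be in the wrong one. None of the 59 lies on the X chromosome, which holds 13.8% of the measured genes with a known chromosome. Of 71 genes with such symbols in RefSeq, 12 were not members, among them mrpl-13 and mrpl-58, whose probe sets are shared with another gene.

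The mitochondrial ribosome translates the few messages that the mitochondrial genome encodes, nearly all of them core subunits of the respiratory chain and ATP synthase. All its proteins are encoded in the nucleus, made on cytosolic ribosomes and imported, and they are assembled with ribosomal RNA made inside the organelle. The small subunit decodes the message and the large subunit forms the peptide bond. The early embryo inherits both messages and mitochondria from the oocyte.

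Transcript levels came from Affymetrix arrays hybridised with RNA of staged embryos at 10 times, 0, 23, 41, 53, 66, 83, 101, 122, 143 and 186 min, counted from the 4-cell stage at 22 °C. The groups were wild-type N2 embryos with 34 arrays, pie-1(zu154) embryos with 27, pie-1(zu154); pal-1(RNAi) embryos with 34 and mex-3(zu155); skn-1(RNAi) embryos with 28, called pie-1, pie-1/pal-1(RNAi) and mex-3/skn-1(RNAi) here. PIE-1 keeps transcription off in germline blastomeres, PAL-1 specifies posterior lineages, MEX-3 holds back PAL-1 in the anterior and SKN-1 specifies the founder of endoderm and mesoderm. The zu154 allele is shared by both pie-1 genotypes. N2 replicates are named by letters at 0, 41, 101 and 143 min and by numbers at 23, 53, 83, 122 and 186 min. Only 66 min holds both, and the labels do not say what the naming means. For N2 times of unlike naming, time and kind of array therefore cannot be told apart. The array description files note RNAi food for 19 pie-1/pal-1(RNAi) arrays and pools of 20 to 75 embryos for 14 arrays. The labels do not say that arrays of a group came from separate collections, so a p-value here rests on how arrays of a group differ, a spread that may be technical.

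On the arrays of 0 to 41 min, the pie-1 signal averaged 7.69 ± 0.40 in N2 (SD, n = 10), 3.52 ± 0.21 in pie-1 (SD, n = 8) and 3.45 ± 0.18 in pie-1/pal-1(RNAi) (SD, n = 11). The mex-3 signal averaged 8.03 ± 0.77 in N2 (SD, n = 10) and 3.54 ± 0.28 in mex-3/skn-1(RNAi) (SD, n = 8). Where these genes are not mutated, their means were also below N2. The pie-1 signal averaged 5.88 ± 0.72 in mex-3/skn-1(RNAi) (SD, n = 8). The mex-3 signal averaged 6.57 ± 0.81 in pie-1 (SD, n = 8) and 6.45 ± 1.23 in pie-1/pal-1(RNAi) (SD, n = 11). Of the later mutant arrays, 4 had a high mex-3 signal. One of them, the array labelled replicate 7 of mex-3/skn-1(RNAi) at 186 min, read 6.36 beside 3.63 to 3.90 on the other arrays. N2 arrays of 186 min read 4.31 to 5.09. Whether its label is right was not tested. The others were replicate 1 of pie-1/pal-1(RNAi) at 143 min with 9.46, replicate 5 of pie-1/pal-1(RNAi) at 122 min with 6.64 and replicate 4 of pie-1 at 186 min with 6.09. The median of an array was 3.24 to 3.41 as a log2 value, and the difference between the 3' and 5' GAPDH probe sets averaged 0.77 ± 0.27 in N2, 1.48 ± 0.39 in mex-3/skn-1(RNAi), 1.19 ± 0.38 in pie-1 embryos and 1.40 ± 0.30 in pie-1/pal-1(RNAi) (SD over 34, 28, 27 and 34 arrays). The median of 23 sperm genes averaged 3.66 in N2 and 3.44 to 3.49 in the mutants, and that of 6 adult intestine and cuticle genes 3.22 to 3.31, as means over the arrays of a genotype. Single arrays lay higher. The adult median was 3.94, 3.73 and 4.46 on replicates 1, 2 and 3 of pie-1/pal-1(RNAi) at 0 min and 3.68 and 4.18 on replicates 4 and 5 of N2 at 66 min, and the sperm median was 4.30 on replicate 6 of mex-3/skn-1(RNAi) at 0 min and 4.01 on replicate 2 of pie-1 at 53 min. The part of the GAPDH and marker differences between genotypes in the results below was not tested. Without these 7 arrays, or without the 4 with high mex-3, 0 of the counts of called members between windows moved by over 1.5 times. Scan days are known for 96 arrays, and each of the 9 days lies within a single genotype, so scan day and genotype cannot be told apart. Fewer cells of a type and less RNA per cell cannot be told apart in these whole-embryo samples.

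The signal of the members was mostly above the low values of the array. Averaged over all arrays it ranged from 2.89 for mrpl-45 to 6.70, and 47 of 59 members (79.7%) averaged at least 4, compared with 28.5% of all 22548 probe sets tested. The other 12 averaged under 4. No filter on low values was used, so all 59 members were tested.

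The level of these genes was lowest about an hour after the 4-cell stage and higher before and after. In N2 the median of the 59 genes was 5.50 ± 0.061 at 0 min (SD, n = 3), 4.40 ± 0.133 at 53 min (SD, n = 4) and 5.53 ± 0.345 at 186 min (SD, n = 3). The pie-1 embryos went from 5.24 at 0 min to 4.10 at 66 min and 5.12 at 186 min, and pie-1/pal-1(RNAi) embryos from 4.96 to 4.16 at 53 min and 5.24 at 186 min. In mex-3/skn-1(RNAi) the median was 4.76 ± 0.604 at 0 min (SD, n = 3), 4.09 at 53 min and 5.40 ± 0.194 at 186 min (SD, n = 4). The lowest mean thus lay at 53 or 66 min in each genotype. In pie-1/pal-1(RNAi) it was not set apart from 41 min, with 4.23 ± 0.115 (SD, n = 4) at 41 min and 4.16 ± 0.101 (SD, n = 3) at 53 min. The median of its large subunit genes was lowest at 41 min, with 4.04 beside 4.14 at 53 min. Single arrays stood apart in mex-3/skn-1(RNAi). Replicate 5 had a median of 4.07 at 0 min beside 5.02 and 5.19 on the other arrays, and 3.88 at 143 min beside 4.94. The median of all probe sets that averaged 5 or more over all arrays was low there as well. It was 5.235 beside 6.266 and 6.299 at 0 min and 4.598 beside 5.89 at 143 min. The part of this shift in the members' values was not tested.

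**Figure D1:**
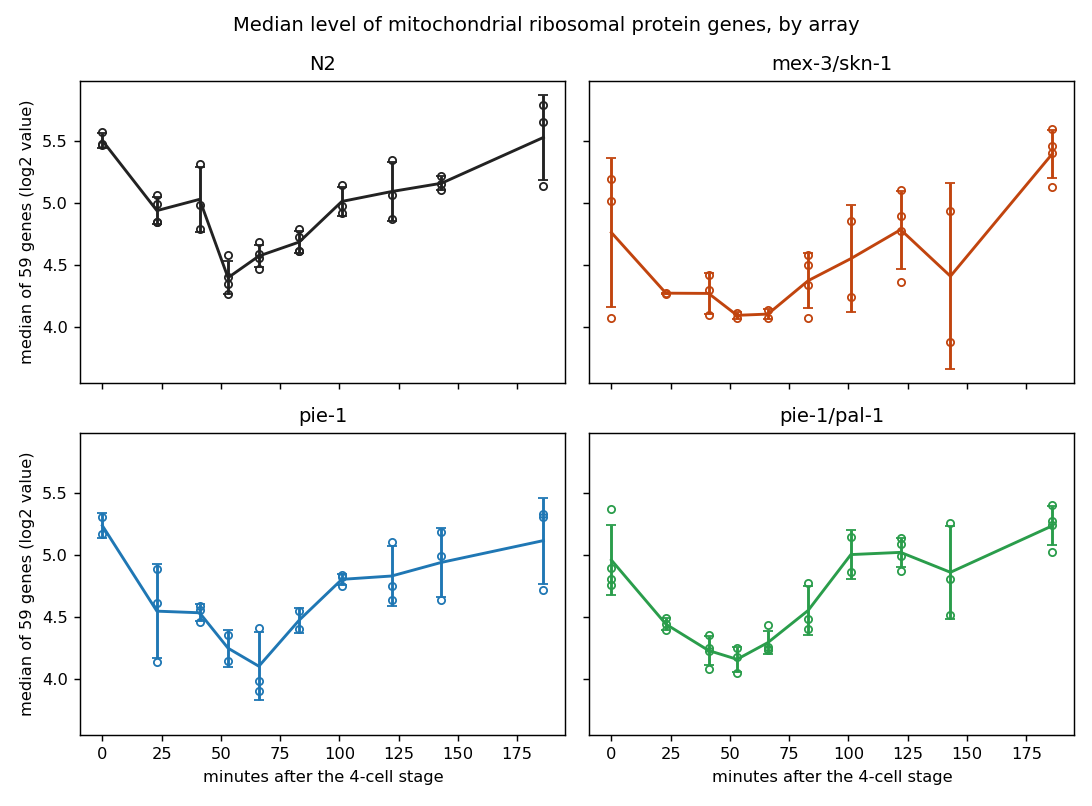
Median log2 value of the 59 mitochondrial ribosomal protein genes against minutes after the 4-cell stage, with each circle an array and the line and bars the mean and SD of the group. In all 4 panels the level is lowest at 53 or 66 min, and in N2 it goes from 5.50 at 0 min to 4.40 at 53 min and 5.53 at 186 min.

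Most members shared this course. The group means at 53 and 66 min, averaged, were below those at both 0 and 186 min for 51 of 59 members in N2, 50 in mex-3/skn-1(RNAi), 51 in pie-1 embryos and 44 in pie-1/pal-1(RNAi). Among all probe sets tested, 27.7%, 27.9%, 24.2% and 24.6% had this form. Among probe sets that averaged at least 4, the shares were 21.3%, 23.6%, 32.9% and 30.7%. For 41 members it held in all 4 genotypes, and for 5 (mrpl-18, mrpl-40, mrpl-44, mrpl-45 and mrps-31) in none. Of these, mrpl-45 and mrps-31 had low signal throughout, with means of 2.89 and 3.24. The range of a member's group means over the 10 times had a median of 1.37 in N2, 1.5 in both mex-3/skn-1(RNAi) and pie-1 embryos and 1.36 in pie-1/pal-1(RNAi), all as log2 differences. The correlation of a member's group means with the median of the other members, over the 10 times, was positive for 56 members in N2 with a median r of 0.68, and the other genotypes gave 53 to 55 members and medians from 0.69 to 0.80. These correlations are descriptions, since all members share the same arrays.

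**Figure D2:**
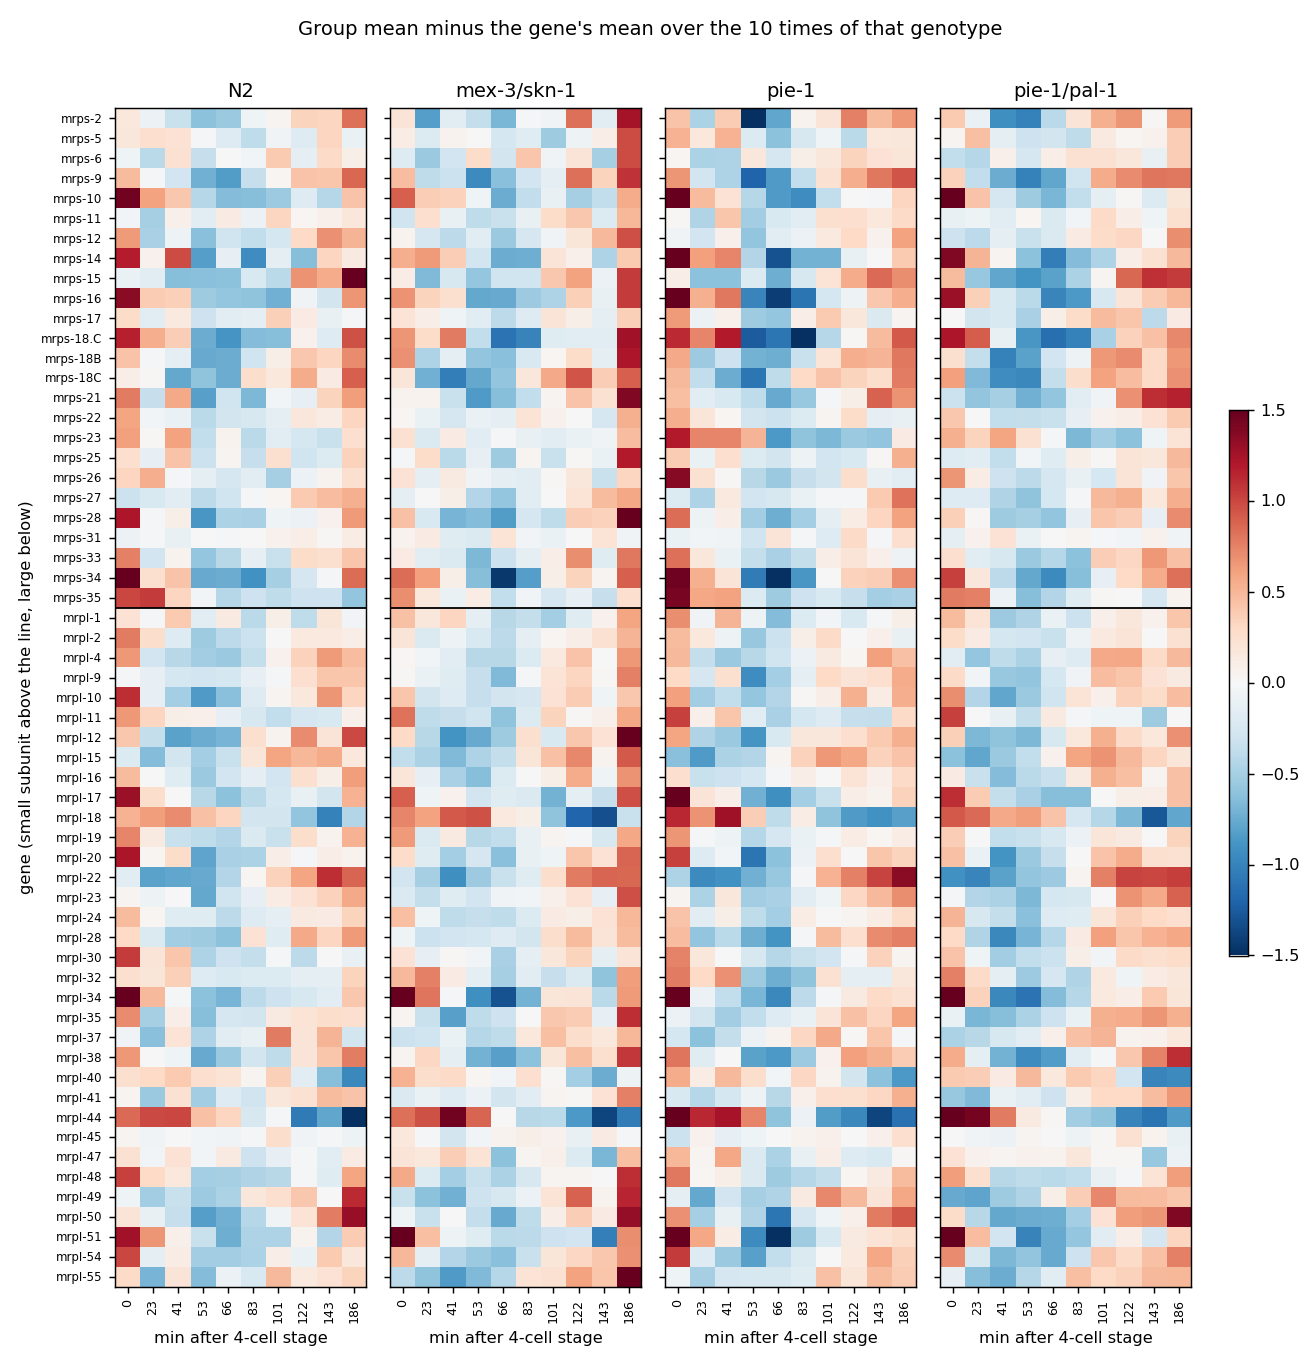
Group mean of each gene minus its mean over the 10 times of that genotype, as a log2 difference by colour, with genes in rows, times in columns and the small subunit above the line. Blue columns at 53 and 66 min run through most genes of both subunits, while mrpl-18, mrpl-40 and mrpl-44 go from red to blue.

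Times were next grouped into an early window (0, 23 and 41 min), a middle window (53, 66 and 83 min) and a late window (101 to 186 min), each the unweighted mean of its group means. A gene was called, and is said to rise or fall, at an adjusted p under 0.05 in limma's moderated test and a change of at least 2-fold. The adjustment is that of Benjamini and Hochberg and runs over the whole set of 22548 probe sets. Values below are log2 differences ± SE from that fit.

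From the early to the middle window in N2, 10 of 59 members fell and 0 rose. Of all probe sets, 5.19% were called lower and 3.14% higher. At the adjusted p alone 37 members were lower and 0 higher, compared with 15.3% and 12.3% of all probe sets. The median change of the members was -0.461, while that of all probe sets was 0.018 and that of bright probe sets, which averaged 5 or more over all arrays, was 0.012. At an unadjusted p under 0.05, 39 members were lower and 0 higher. The median was -0.47 over 25 small and -0.455 over 34 large subunit genes, with 7 and 3 genes called lower, and no test of the difference between subunits was made.

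The largest fall in N2 was that of mrps-34, a small subunit protein known from mitochondria only. Its values were 7.34, 7.66 and 7.84 at 0 min, 5.02, 5.05, 5.26 and 5.41 at 53 min and 4.68, 5.18, 5.36 and 5.54 at 66 min. At 83 min they were 4.76, 4.83, 5.15 and 5.385, the lowest mean, and they were back at 6.32, 6.85 and 7.14 at 186 min. The 10 early arrays all lay above the 12 middle ones, and mrps-34 fell by 1.58 ± 0.18 (limma, adjusted p = 5.25e-12).

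The other leading genes of this fall were bacterial-type small subunit proteins. For mrps-18.C (CELE_T14B4.2, a relative of bacterial S18 and distinct from the member mrps-18C, CELE_C26E6.6), early arrays ran from 5.44 through a median of 6.26 to 7.33 and middle arrays from 4.23 through 4.96 to 5.52. The windows just overlapped, and mrps-18.C fell by 1.45 ± 0.21 (limma, adjusted p = 1.01e-08). For mrps-16, a relative of bacterial S16, early arrays spanned 5.14 to 7.36 and middle arrays 4.41 to 5.07, with no overlap and a fall by 1.28 ± 0.17 (limma, adjusted p = 1.57e-09). Both probe sets of mrps-16 were called, the dimmer with a change of -1.12 ± 0.14. Of the other two, mrps-10 changed by -1.39 ± 0.16 and mrps-14 by -1.37 ± 0.19. These are counterparts of bacterial S10 and S14, proteins of the small subunit's head.

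Of the 5 leading genes of N2, all but mrps-10 were also called in every mutant. From the early to the middle window 5 members fell in mex-3/skn-1(RNAi), 12 in pie-1 embryos and 8 in pie-1/pal-1(RNAi), and 0 rose in any of them in limma's fit. Of all probe sets, 2.63%, 6.6% and 4.82% were called lower and 3.53%, 2.7% and 3.71% higher. Of the members, mrps-14, mrps-16, mrps-18.C, mrps-34 and mrpl-34 were called lower in all 4 genotypes (1.86% of all probe sets were), and at the adjusted p alone 14 members were (6.22%). At that threshold 17 members were lower and 1 higher in mex-3/skn-1(RNAi) (8.78% and 11.4% of all probe sets), 34 and 2 in pie-1 embryos (13.6% and 8.16%) and 24 and 5 in pie-1/pal-1(RNAi) (13.1% and 11%). At an unadjusted p under 0.05, 2, 2 and 5 members were higher. Without replicate 1 of mex-3/skn-1(RNAi) 3 members fell there, and without replicate 5, 8 did. In pie-1, mrps-18.C fell by 2.36 ± 0.26 (limma, adjusted p = 8.08e-13), from arrays between 5.93 and 7.19 to arrays between 3.75 and 5.49. The mitochondria-specific large subunit gene mrpl-51 was among the leading falls there and in pie-1/pal-1(RNAi). In pie-1 its early arrays ran from 5.42 through 6.21 to 7.69 and its middle arrays from 3.58 through 4.82 to 5.26, without overlap (-1.93 ± 0.21, limma, adjusted p = 1.41e-12). In pie-1/pal-1(RNAi) mrpl-51 changed by -1.55 ± 0.18 and in N2 by -1.18 ± 0.17, both called, and in mex-3/skn-1(RNAi) by -0.96 ± 0.21, which missed the fold. The change of mrpl-44 in pie-1/pal-1(RNAi) was -1.43 ± 0.21, and the largest fall in mex-3/skn-1(RNAi) was that of mrpl-34. For mrpl-34, a counterpart of bacterial L34 in the large subunit, the change was -1.24 ± 0.19 in N2, -1.76 ± 0.22 in mex-3/skn-1(RNAi), -1.16 ± 0.23 in pie-1 embryos and -1.18 ± 0.19 in pie-1/pal-1(RNAi). The mrpl-34 arrays of the early and middle windows overlapped in N2, where the early ones ran from 5.01 through 5.77 to 7.07 and the middle ones from 4.34 through 4.82 to 5.25. By subunit, the small and large subunit medians were -0.296 and -0.275 in mex-3/skn-1(RNAi), -0.696 and -0.447 in pie-1 and -0.348 and -0.13 in pie-1/pal-1(RNAi). The median change of the 59 members was -0.276 in mex-3/skn-1(RNAi), -0.564 in pie-1 embryos and -0.199 in pie-1/pal-1(RNAi), while bright probe sets changed by a median of 0.228, -0.174 and -0.024. The part of such shifts in the members' change was not tested.

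Single time points gave larger counts than the windows. At 53 compared with 0 min, 28 members were lower in N2 (6.86% of all probe sets), 11 in mex-3/skn-1(RNAi) (2.62%), 30 in pie-1 embryos (7.52%) and 25 in pie-1/pal-1(RNAi) (6.98%). In limma's fit 0 of the 59 were higher in any genotype, with 0 at an unadjusted p under 0.05 as well, while 4.96%, 3.69%, 2.08% and 3.46% of all probe sets were called higher. In the same order, the groups held 3, 3, 2 and 4 arrays at 0 min and 4, 2, 2 and 3 at 53 min. Mutant arrays with high adult or sperm markers are among them, and these counts were not recomputed without those arrays. The N2 arrays are lettered at 0 min and numbered at 53 min.

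The recovery was spread over more members than the 2-fold rule shows. From the middle to the late window in N2, 4 members rose and 1 fell, compared with 3.4% and 3.45% of all probe sets. With no fold minimum 40 members were higher and 3 lower, compared with 14.5% and 12% of all probe sets. After quantile normalization 1 rose and 1 fell. The median change of the members was 0.517, while all probe sets had a median of 0.001. By the class read from the number, the N2 medians were 0.741 for the 15 bacterial-type and 0.329 for the 10 mitochondria-specific small subunit genes. Those of the large subunit were 0.498 and 0.546 for the 21 and 13 genes of these classes. No test of the difference between classes was made.

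The 4 genes that rose in N2 were mrpl-50 by 1.22 ± 0.12, mrpl-22 by 1.12 ± 0.14, mrps-15 by 1.09 ± 0.15 and mrps-9 by 1.07 ± 0.15. The mrps-9 product is a relative of bacterial S9, whose tail reaches the tRNA in the peptidyl site. In N2, mrps-9 arrays ran from 4.01 through 4.38 to 4.80 in the middle window and from 4.97 through 5.48 to 6.09 in the late window. All late arrays were above all middle arrays (limma, adjusted p = 2.39e-09). For mrpl-50, a mitochondria-specific large subunit protein, N2 middle arrays ran from 3.23 to 4.02 and late arrays from 4.11 to 6.02, again without overlap (limma, adjusted p = 8.28e-15).

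In the mutants, 9 members rose and 2 fell in mex-3/skn-1(RNAi), 11 rose and 1 fell in pie-1, and 9 rose and 1 fell in pie-1/pal-1(RNAi). Among all probe sets, 1.4%, 3.09% and 3.77% were called higher and 4.36%, 2.77% and 3.03% lower. With no fold minimum, 39, 38 and 44 members were higher, compared with 7.27%, 11.4% and 14.9% of all probe sets, and 3 members were lower in each, compared with 12.4%, 8.67% and 9.56%. For mex-3/skn-1(RNAi) embryos, 4 rose and 2 fell without replicate 4, 15 and 1 after quantile normalization, and 27 and 0 with arrays centred on bright probe sets. At the adjusted p alone 30 members were higher in all 4 genotypes (3.87% of all probe sets were), and mrpl-18, mrpl-40 and mrpl-44 were lower in all 4 (4.88%). With the 2-fold rule, mrpl-22 and mrps-9 rose in all 4 genotypes (0.634% of all probe sets). Other leading rises were those of mrpl-38 with 1.19 ± 0.19 in mex-3/skn-1(RNAi) and mrps-2 with 1.32 ± 0.18 in pie-1. The change of mrps-9 was 1.15 ± 0.17 in mex-3/skn-1(RNAi), 1.43 ± 0.17 in pie-1 embryos and 1.41 ± 0.16 in pie-1/pal-1(RNAi). The genes with a strong early fall came back to different degrees. The gene mrps-34 changed by 1.31 ± 0.21 in mex-3/skn-1(RNAi), 1.55 ± 0.21 in pie-1 embryos and 1.18 ± 0.18 in pie-1/pal-1(RNAi), and by 0.81 ± 0.17 in N2, which missed the fold. For mrps-10 the recovery was 0.39 ± 0.15 in N2 and 0.29 ± 0.18 in mex-3/skn-1(RNAi) (limma, adjusted p = 0.0499 and 0.313). For mrpl-51 it was 0.39 ± 0.17 in N2 and 0.09 ± 0.20 in mex-3/skn-1(RNAi) (limma, adjusted p = 0.0703 and 0.824), and mrpl-51 rose by 1.11 ± 0.20 in pie-1.

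From 66 to 186 min, 21 members rose in N2 (6.05% of all probe sets), 40 in mex-3/skn-1(RNAi) (6.81%), 24 in pie-1 embryos (6.31%) and 19 in pie-1/pal-1(RNAi) (6.17%). In N2 and pie-1/pal-1(RNAi) 2 members each fell (7.14% and 4.62% of all probe sets), and in mex-3/skn-1(RNAi) and pie-1 embryos 0 did (4.12% and 3.15%), with 1 lower in pie-1 at the adjusted p alone. The median change of the members was 0.725, 1.159, 0.811 and 0.759, while bright probe sets had medians of -0.252, -0.045, 0.2 and 0.027. In the same order, the groups held 4, 2, 3 and 4 arrays at 66 min and 3, 4, 3 and 4 at 186 min. Among them are N2 arrays with high adult markers and mutant arrays with high mex-3. These counts were not recomputed without such arrays.

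**Figure D3:**
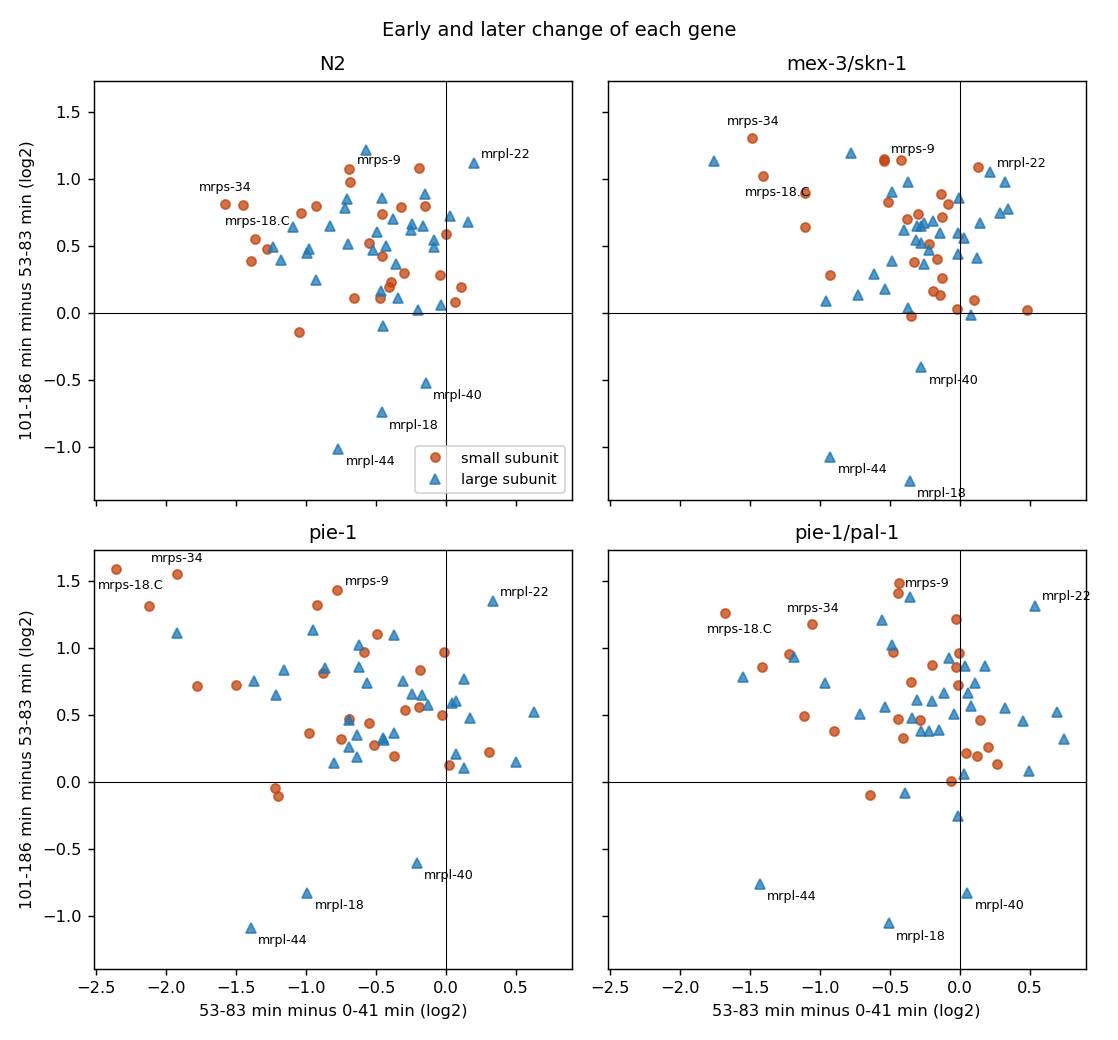
Change of each gene from the early (0-41 min) to the middle (53-83 min) window on the x axis and from the middle to the late (101-186 min) window on the y axis, as log2 differences, with circles for the small and triangles for the large subunit. Most points lie at upper left, a fall followed by a rise, while mrpl-22 lies at upper right and mrpl-18 and mrpl-44 at lower left in each genotype.

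Within scan days of a genotype the fall and the recovery had the same direction as over all days. The windows of a day held only the times scanned on that day. On the N2 day that held 8 middle and 9 early arrays, 9 members fell and 0 rose (4.9% and 3.06% of all probe sets), with a median of -0.42. The mex-3/skn-1(RNAi) day with 6 middle and 2 early arrays gave 6 lower (3.5%) and a median of -0.326. The pie-1/pal-1(RNAi) days gave 8 lower (5.45%) and 7 lower (4.26%), with medians of -0.204 and -0.164. On these 3 days 0 members rose (5.45%, 3.73% and 3.85% of all probe sets), with 3, 5 and 3 higher at an unadjusted p under 0.05. From the middle to the late window, pie-1/pal-1(RNAi) had 16 members higher (5.28%) on one day and 13 (3.39%) on the other, and mex-3/skn-1(RNAi) 8 (1.6%), with medians of 0.628, 0.523 and 0.552. In N2 the late arrays were mostly scanned on other days than the early ones. The N2 day with 10 late and 2 middle arrays gave 10 members higher (4.79%) and a median of 0.479. A further N2 day with 2 of each gave 0 higher (1.28%) in limma's fit, 9 at an unadjusted p under 0.05, and a median of 0.385. The middle to late falls within days were 2 (4.2%) and 0 (2.06%) in N2, 2 (6.04%) in mex-3/skn-1(RNAi) and 1 (3.04%) and 2 (3.89%) in pie-1/pal-1(RNAi). For pie-1 no known scan day holds arrays of several windows.

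Late compared with early, the fall and the recovery nearly cancelled in N2. There 1 member rose and 4 fell, compared with 6.7% and 8.24% of all probe sets, and the median was -0.024. The pie-1 embryos had 2 members higher and 5 lower (5.46% and 8.28% of all probe sets) and a median of -0.007. In mex-3/skn-1(RNAi) 5 rose and 2 fell (4.11% and 5.81%), with a median of 0.295, and in pie-1/pal-1(RNAi) 7 rose and 2 fell (6.8% and 6.13%), with a median of 0.397. The split into higher and lower depended on scaling. After quantile normalization it was 1 and 2 in N2 and 4 and 4 in pie-1, and with arrays centred on bright probe sets 3 and 3 in N2 and 5 and 2 in pie-1. Without the fold minimum, 17 members were higher and 18 lower in N2 (16.7% and 17.4% of all probe sets), 24 and 7 in mex-3/skn-1(RNAi) (12.4% and 14.1%), 21 and 16 in pie-1 embryos (15.5% and 17%) and 30 and 9 in pie-1/pal-1(RNAi) (16.8% and 14.9%). Within scan days, pie-1/pal-1(RNAi) had 10 higher and 2 lower (7.63% and 6.4%) and 8 higher and 2 lower (5.72% and 6.17%), with medians of 0.355 and 0.308. The split in mex-3/skn-1(RNAi) differed within days, with 1 higher and 7 lower (3.82% and 8.11%) on one and 3 higher and 4 lower (4.59% and 6.63%) on another. The medians were 0.028 and 0.208. These days did not hold all times of the windows. Late arrays covered 3 times on each, and the early arrays of the second covered 1 time. Day and set of times cannot be told apart there. At the adjusted p alone mrpl-18, mrpl-40, mrpl-44, mrpl-51 and mrps-10 were lower late than early in all 4 genotypes (10.3% of all probe sets were) and 12 members were higher in all 4 (7.23%). Called from early to late in every genotype were mrpl-22 upward and mrpl-18 and mrpl-44 downward (2.87% and 4.2% of all probe sets). Even so, mrpl-22 was lower at 53 and 66 min than at both 0 and 186 min, except in pie-1/pal-1(RNAi).

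The product of mrpl-22 is a counterpart of bacterial L22, which lines the exit tunnel of the large subunit. Its N2 values were 4.06, 4.38 and 4.53 at 0 min, 3.58 to 3.80 at 23 min, 3.70 to 3.75 at 41 min and 5.55, 5.63 and 5.65 at 143 min. The 10 early and 12 late N2 arrays overlapped only between the highest early and the lowest late array, and mrpl-22 rose by 1.32 ± 0.15 (limma, adjusted p = 1.19e-12). In the mutants mrpl-22 rose by 1.26 ± 0.16 in mex-3/skn-1(RNAi), 1.68 ± 0.16 in pie-1 embryos and 1.85 ± 0.15 in pie-1/pal-1(RNAi). Early and late arrays of mrpl-22 did not overlap in pie-1 (3.30 to 4.12 and 4.75 to 6.09) or pie-1/pal-1(RNAi) (3.17 to 4.13 and 4.92 to 6.14), and overlapped in mex-3/skn-1(RNAi) (2.90 to 4.13 and 3.96 to 5.95).

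The product of mrpl-44 has an RNase III-like domain, as known from the human protein, and sits in the large subunit. Its N2 arrays lay between 7.28 and 7.74 in the early window, with 6.94 to 7.24 at 53 min, 5.44, 5.50 and 5.69 at 122 min and 4.90, 5.20 and 5.23 at 186 min. All early arrays were above all late ones, and mrpl-44 fell by 1.78 ± 0.21 from early to late (limma, adjusted p = 3.2e-12). In the mutants mrpl-44 changed by -2.0 ± 0.23 in mex-3/skn-1(RNAi), -2.48 ± 0.22 in pie-1 embryos and -2.19 ± 0.20 in pie-1/pal-1(RNAi). The other probe sets of mrpl-44 did not give the same value. One of them changed by -1.0 ± 0.16 from early to late in N2 and the other by 0.03 ± 0.08, and from the middle to the late window the latter changed by 0.24 (limma, adjusted p = 0.00737) while the brightest changed by -1.01 ± 0.20. The probe sets of mrpl-44 thus disagree in sign there, and the annotation used here does not say which transcripts each one reads.

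For mrpl-18, a relative of bacterial L18, the protein that binds 5S RNA in bacteria, N2 arrays ran from 6.94 through 7.12 to 7.41 in the early window and from 5.43 through 6.16 to 6.36 in the late window. The windows did not overlap, and mrpl-18 fell by 1.2 ± 0.17 (limma, adjusted p = 2.3e-09). In the mutants mrpl-18 changed by -1.61 ± 0.19 in mex-3/skn-1(RNAi), -1.82 ± 0.18 in pie-1 embryos and -1.56 ± 0.17 in pie-1/pal-1(RNAi). The mitochondria-specific mrpl-40 went the same way without reaching 2-fold, with -0.67 ± 0.12 in N2 and -0.68 ± 0.13, -0.81 ± 0.13 and -0.77 ± 0.12 in mex-3/skn-1(RNAi), pie-1 and pie-1/pal-1(RNAi) (limma, all 4 with an adjusted p under 0.05). The remaining N2 calls were mrps-35 with -1.19 ± 0.14 and mrps-10 with -1.0 ± 0.16, the latter at the edge of the fold rule.

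**Figure D4:**
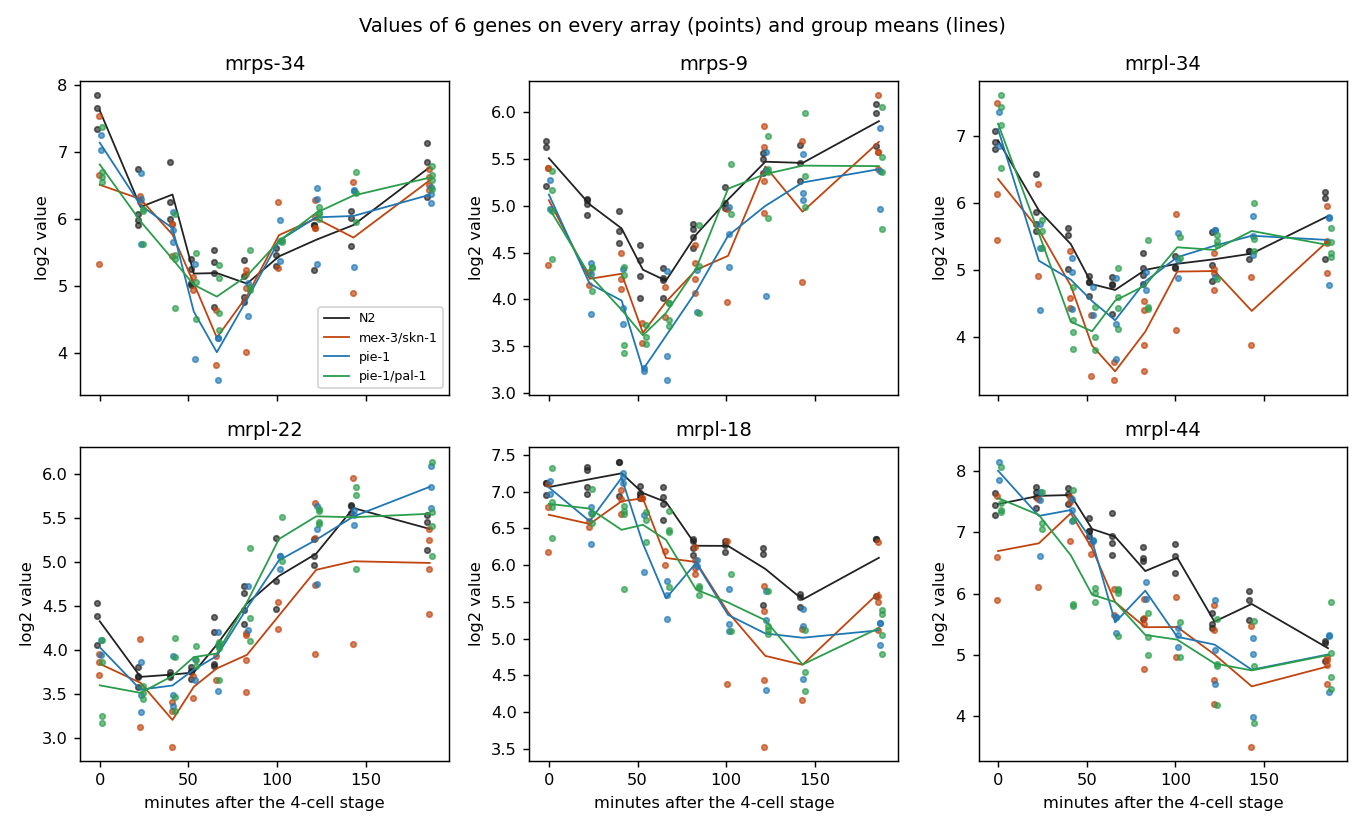
Log2 values of 6 genes on every array (points) with lines through the group means, against minutes after the 4-cell stage and coloured by genotype, each panel with its own y axis. The upper row (mrps-34, mrps-9 and mrpl-34) is low between 53 and 83 min and higher before and after, while mrpl-22 rises and mrpl-18 and mrpl-44 fall in all 4 genotypes.

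Genes that rose from early to late in mutants differed between genotypes in which passed the rule. The mex-3/skn-1(RNAi) genes were mrpl-55 by 1.3 ± 0.16, mrpl-22, mrps-18C by 1.22 ± 0.17, mrpl-49 by 1.12 ± 0.15 and mrpl-15 by 1.04 ± 0.16. In pie-1 they were mrpl-22 and mrpl-15, the latter by 1.15 ± 0.16. In pie-1/pal-1(RNAi) they included mrpl-49 by 1.21 ± 0.14, mrps-21 by 1.2 ± 0.16, mrpl-15 by 1.06 ± 0.14 and mrps-15 by 1.05 ± 0.16. Of these genes, mrpl-15 encodes a counterpart of bacterial L15, and mrpl-49 and mrpl-55 encode other large subunit proteins. The falls in pie-1 also took in mrps-23 with -1.31 ± 0.16, mrps-35 with -1.26 ± 0.15 and mrps-14 with -1.07 ± 0.20.

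In the deposited values, each mutant had a lower median of these genes than N2 in the early window. In mex-3/skn-1(RNAi) 7 members were called lower and 0 higher (6.82% and 0.368% of all probe sets), with a median of -0.577. There 43 were lower and 0 higher at the adjusted p alone (24.7% and 15.4%), and without replicate 5 of mex-3/skn-1(RNAi) 4 members were called. In pie-1/pal-1(RNAi) 3 were lower and 0 higher (3.78% and 0.137%), with a median of -0.418, and 37 were lower and 1 higher at the adjusted p alone (22.7% and 17%). In pie-1 0 were called in either direction in limma's fit (2.37% lower and 0.191% higher). There 18 were lower and 3 higher at the adjusted p alone (15.2% and 8.47%) and 24 and 4 at an unadjusted p under 0.05, with a median of -0.274. Bright probe sets moved with them, with medians of -0.516, -0.298 and -0.196, and their part in the members' difference was not tested. With each array centred on those bright probe sets, which moved the median of all probe sets by 0.53 in mex-3/skn-1(RNAi), 0.353 in pie-1/pal-1(RNAi) and 0.243 in pie-1, the members' medians were -0.039 in both mex-3/skn-1(RNAi) and pie-1 embryos and -0.067 in pie-1/pal-1(RNAi). Then 0 members were called in mex-3/skn-1(RNAi) and 1 in pie-1/pal-1(RNAi), and after quantile normalization 1 and 0. Without replicate 4 of pie-1, 1 member was called there. With the replicate number as a block shared across genotypes, 6 members were called in pie-1/pal-1(RNAi) and 1 in pie-1. These 3 comparisons share the N2 arrays.

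The called genes were the small subunit genes mrps-28, mrps-35, mrps-5 and mrps-6 and the large subunit genes mrpl-20, mrpl-30 and mrpl-2 in mex-3/skn-1(RNAi), and mrpl-20, mrps-28 and mrpl-30 in pie-1/pal-1(RNAi). The mrps-28 arrays of the early window ran from 4.53 through 5.19 to 6.75 in N2, from 3.08 through 3.85 to 5.34 in mex-3/skn-1(RNAi) and from 3.26 through 4.31 to 5.57 in pie-1/pal-1(RNAi). The ranges overlapped, and mrps-28 was lower than in N2 by a log2 difference of -1.51 ± 0.22 in mex-3/skn-1(RNAi) (limma, adjusted p = 3.1e-08) and of -1.13 ± 0.20 for pie-1/pal-1(RNAi) (limma, adjusted p = 5.1e-06). For mrpl-20, a relative of the bacterial assembly protein L20, the differences were -1.12 ± 0.17 in mex-3/skn-1(RNAi) and -1.36 ± 0.16 in pie-1/pal-1(RNAi), and -0.83 ± 0.17 in pie-1, which missed the fold.

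The gene mrps-5, known in worms because its RNAi lengthens life, has a product related to bacterial S5 near the decoding site. Its early N2 arrays ran from 6.11 through 6.47 to 6.63 and its early mex-3/skn-1(RNAi) arrays from 4.48 through 5.53 to 5.96. They did not overlap, and mrps-5 differed by -1.09 ± 0.21 (limma, adjusted p = 1.92e-05). Bright probe sets were also lower in this comparison, as given above, and centring arrays on them left no member called. The same window gave a difference from N2 of -0.35 ± 0.21 in pie-1 (limma, adjusted p = 0.244) and of -0.81 ± 0.20 for pie-1/pal-1(RNAi) (limma, adjusted p = 0.000532). Over time in N2, mrps-5 did not pass the test, with -0.41 ± 0.19 from the early to the middle window (limma, adjusted p = 0.113) and 0.19 ± 0.18 from the middle to the late one (limma, adjusted p = 0.57).

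In the late window 0 members were called between any mutant and N2 in limma's fit. There 28 were lower and 0 higher at the adjusted p alone in mex-3/skn-1(RNAi) (24.9% and 13.6% of all probe sets), 20 and 0 in pie-1 embryos (23.8% and 17.4%) and 11 and 3 in pie-1/pal-1(RNAi) (19% and 12.9%). At an unadjusted p under 0.05, 35, 24 and 14 were lower and 0, 0 and 5 higher. Calls of 1 or 2 members lower appeared without replicate 2 or 4 of mex-3/skn-1(RNAi) (1 each), replicate 2 of pie-1 (1) or replicate 1 of pie-1/pal-1(RNAi) (2). Of all probe sets, 6.12%, 2.89% and 2.06% were called lower and 0.151%, 0.071% and 0.271% higher with the 2-fold rule. The medians of the members were -0.314, -0.209 and -0.117 in the deposited values, and turned to 0.099, 0.14 and 0.048 after quantile normalization and to 0.286, 0.171 and 0.132 after centring on bright probe sets. No direction is therefore given for the late level against N2. The 3 members with the smallest adjusted p late were the same in both pie-1 genotypes, in the order pie-1 then pie-1/pal-1(RNAi), mrpl-40 with -0.69 ± 0.12 and -0.80 ± 0.12, mrpl-37 with -0.71 ± 0.13 and -0.74 ± 0.13, and mrpl-12 with -0.77 ± 0.14 and -0.75 ± 0.14. In mex-3/skn-1(RNAi) they were mrpl-2 with -0.65 ± 0.11, mrps-6 with -0.79 ± 0.14 and mrpl-19 with -0.61 ± 0.11. Early in pie-1, mrpl-37 differed by -0.90 ± 0.15. Between pie-1/pal-1(RNAi) and pie-1 0 members were called (0.031% of probe sets higher and 0.00887% lower). There 2 were higher and 0 lower at the adjusted p alone (1.78% and 0.656%), and 9 and 1 at an unadjusted p under 0.05. The 2 at the adjusted p were mrpl-24 with 0.35 ± 0.09 (limma, adjusted p = 0.0234) and mrpl-50 with 0.41 ± 0.12 (limma, adjusted p = 0.0419), while mrpl-16 had 0.36 ± 0.12 (limma, adjusted p = 0.0974). Between mex-3/skn-1(RNAi) and pie-1/pal-1(RNAi) 0 were called (0.639% higher and 2.31% lower), with 0 higher and 11 lower at the adjusted p alone (4.98% and 13.7%) and 1 and 18 at an unadjusted p under 0.05. Among the 11 were mrpl-9 with -0.72 ± 0.14 and mrpl-23 with -0.70 ± 0.14.

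The change from early to late was also compared between genotypes as an interaction. The change differed from that of N2 for mrps-28 in mex-3/skn-1(RNAi), with 1.02 ± 0.30 (limma, adjusted p = 0.0112), and was the only call there (1.47% of probe sets higher and 2.23% lower). In pie-1/pal-1(RNAi) it differed for mrps-21, a counterpart of bacterial S21, with 1.33 ± 0.23 (limma, adjusted p = 1.5e-05), and for mrpl-20, with 1.0 ± 0.21 (limma, adjusted p = 0.000553), among 0.67% of probe sets called higher and 0.497% lower. In pie-1 0 members were called in limma's fit (0.315% and 0.572%), with 0 higher and 1 lower at the adjusted p alone (1.73% and 2.36%) and 3 and 3 at an unadjusted p under 0.05. At the adjusted p alone, 10 members were higher and 0 lower in the mex-3/skn-1(RNAi) interaction (5.98% and 5.92% of all probe sets) and 9 and 0 in that of pie-1/pal-1(RNAi) (4.43% and 1.92%). One of the 10 was mrpl-48 with 0.85 ± 0.19 (limma, adjusted p = 0.000449), and in pie-1 mrpl-35 had 0.57 ± 0.20 (limma, adjusted p = 0.113). The mrps-21 arrays of pie-1/pal-1(RNAi) ran from 3.93 through 4.24 to 4.66 early and from 4.51 through 5.54 to 6.38 late, while those of N2 ran from 4.17 through 5.10 to 6.18 and from 4.16 through 4.93 to 6.06. These calls depended on which arrays entered. The mex-3/skn-1(RNAi) interaction had 0 calls without replicate 4 or 5 of the mutant or replicate 1, C, E, M, R or S of N2, 2 without replicate 6 of the mutant or 4 of N2, and 3 without replicate 1 of the mutant or D of N2. In pie-1/pal-1(RNAi) 1 was called without replicate 3 of the mutant or 2, C, E, P, Q, R or S of N2, and 4 without replicate 2 of the mutant or D of N2. Without the 7 arrays of high adult or sperm markers, 2 and 4 were called in mex-3/skn-1(RNAi) and pie-1/pal-1(RNAi). These interactions share the N2 arrays too.

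Other lists of mitochondrial and cytosolic translation were followed in N2. For the counts in these lists, the shares of all probe sets that rose and fell were 3.14% and 5.19% from early to middle. They were 3.4% and 3.45% from middle to late, and 6.7% and 8.24% from early to late. Of 75 cytosolic ribosomal protein genes 8 rose from the early to the middle window and 23 from the middle to the late window, with medians of 0.717 and 0.879 and 0 lower. From early to late 63 of them rose, with rps-16 at 2.52 and rpl-19 at 2.14. Their median was 1.607, that of the mitochondrial ribosomal genes -0.024 and that of all probe sets 0.017. No test of the difference between the lists was made.

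Of 43 nuclear genes for subunits of the respiratory chain and ATP synthase, which the mitochondrially made subunits join, 1 rose and 1 fell from early to middle, 0 rose and 5 fell from middle to late, and 1 rose and 13 fell from early to late. The medians were -0.208, -0.347 and -0.481. Among the falls were asb-1, a subunit of ATP synthase, with -2.37, nduf-2.2, a subunit of complex I, with -2.24 and mev-1, a subunit of complex II, with -1.48 from early to late. At the adjusted p alone 22 of the 43 were lower and 1 higher from middle to late (12% and 14.5% of all probe sets). In that comparison 40 of the 59 mitochondrial ribosomal genes were higher.

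Of 21 genes of mitochondrial protein import, 3 fell from early to middle, with a median of -0.661, and 0 were called from middle to late in limma's fit, with a median of -0.007. There 6 were higher and 4 lower at an unadjusted p under 0.05. From early to late timm-17B.1, a channel subunit of the inner membrane, changed by -1.72 and tomm-20, a receptor of the outer membrane, by -1.11. Of 15 factors of mitochondrial translation and transcription, 2 fell from early to middle, with a median of -0.423, and 0 were called from middle to late, with a median of 0.193 and 7 higher and 4 lower at an unadjusted p under 0.05. Of 10 mitochondrial tRNA synthetases, 0 were called in the first comparison, with 5 lower at an unadjusted p under 0.05, and 1 rose in the second, and rars-2 fell by 1.54 from early to late.

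Of 10 mitochondrial chaperones, proteases and regulators of the mitochondrial unfolded protein response, dve-1 rose by 3.04 and lonp-1 fell by 1.04 from early to late. Of 8 transcripts of the mitochondrial genome, 0 were called in the first comparison and 0 in the second in limma's fit, with 1 higher in each at an unadjusted p under 0.05 and medians of 0.153 and 0.13. From early to late nduo-4, a subunit of complex I, rose by 1.13.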

How the data were processed

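The authors deposited a table of log2 values with 1 entry for each probe set and array (1.79 to 12.72). The scale was read from that range. Probe summary, background treatment and scaling between arrays are not given in the sources used here. Text fields of the scanner's description files, deposited for 97 arrays, served as other batch information; 26 pie-1 arrays have none. They give another time than the label for 2 arrays, whose labels were kept, and mark 5 N2 arrays as rehybridised.

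Of 22625 probe sets 77 controls were left out. The probe table gave 1 symbol for 20766 of the rest, several for 887 and none for 895, and 20701 matched RefSeq by gene number. limma 3.58.1 in R 4.3.3 fitted 1 mean for each of 40 groups of 2 to 4 arrays (83 residual degrees of freedom, prior df 4.8), in 23 contrasts. Tables and figures used Python 3.11.15 with pandas 2.3.3, numpy 2.4.6 and matplotlib 3.10.9. The steps were tested on simulated data.

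The members, lists and tests were chosen with earlier results of these data known, and the comparisons with the middle window in mutants after the levels by time had been seen. Genes were named by rank of change among called members (8 each way in N2 late against early, otherwise 5), or, where fewer than 3 were called, as the 3 with the smallest adjusted p. Added were mrps-5, genes whose probe sets disagree in sign, and up to 4 genes of each other list. The genes with the same call in all 4 genotypes, mrpl-40, the rest of the called genes against N2, and mrpl-45 and mrps-31 were chosen after their values were seen.

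Alternatives were quantile normalization, centring, a GAPDH term, scan day, replicate blocks, leaving out arrays with high markers of other cells or high late mex-3 (chosen after seeing the data), narrower windows, subsets of times, the mean of a gene's probe sets, no fold minimum and leaving out each replicate. Precision is limited by how many arrays each group has.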

Additional observations from a re-analysis of the deposited data

Results flagged for a closer look

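In groups of 4 arrays, 9 of 216 group profiles (12 groups, each with 17 genes and the median of the members) held a single array far from the other 3, by Dixon's gap test. Chance gives about 1 in 20. The 17 genes were chosen after their values were seen. All values here are log2 values.

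In N2, mrps-16 read 5.972 on replicate 3 at 23 min, while the other arrays lay between 5.597 and 5.632, and 5.065 on replicate 4 at 83 min beside 4.588 to 4.612. At 66 min the N2 array labelled replicate 4, one of those with a high adult median, had a low mrps-10 value, 4.981 beside 5.265 to 5.289. The N2 array named I at 66 min read 3.495 for mrpl-50 beside 3.669 to 3.685. In mex-3/skn-1(RNAi) at 122 min, replicate 1 had 4.186 for mrps-5 and the others 5.514 to 5.781.

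Arrays labelled replicate 3 of pie-1/pal-1(RNAi) stood apart in 3 profiles, at 41 and 66 min. The mrpl-18 value on that of 41 min was 5.678 beside 6.7 to 6.812. On that of 66 min mrpl-44 read 5.308 beside 6.01 to 6.079, and the median of the members was 4.432 beside 4.234 to 4.257. Replicate 4 at 66 min read 3.66 for mrpl-22 beside 4.024 to 4.094. All these arrays were kept in the fits.

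The change from the early to the late window differed from that of N2 by an interaction test in 3 cases. It was larger by a log2 difference of 1.0155 for mrps-28 in mex-3/skn-1(RNAi) (limma, adjusted p = 0.0112), 1.3282 for mrps-21 in pie-1/pal-1(RNAi) (limma, adjusted p = 1.5e-05) and 1.0039 for mrpl-20 in pie-1/pal-1(RNAi) (limma, adjusted p = 0.000553).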

How the results depend on the processing

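Counts of called members are given as the reported count followed by the alternative one, and the cause of each change was not tested. Of 1193 recomputed counts 1084 stayed within 1.5 times the reported one. After quantile normalization the counts were 5 and 3 for late against early in N2, 5 and 2 for late against middle in N2, 7 and 1 for early mex-3/skn-1(RNAi) against N2, 3 and 0 for early pie-1/pal-1(RNAi) against N2, and 1 and 2, and 2 and 1, for the interactions of mex-3/skn-1(RNAi) and pie-1/pal-1(RNAi). Centring on bright probe sets gave 7 and 0, 3 and 1, 1 and 2, and 2 and 1 for the last 4, and in mex-3/skn-1(RNAi) 5 and 8 for middle against early and 11 and 27 for late against middle. The mean of a gene's probe sets left 0 calls in the mex-3/skn-1(RNAi) interaction, a GAPDH term gave 3 for middle against early in that genotype, and scan day as a term gave 4 for its interaction and 1 for that of pie-1.

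With the replicate number as a replicate block shared across genotypes, the mex-3/skn-1(RNAi) interaction had 2 calls, early pie-1 against N2 had 1 and early pie-1/pal-1(RNAi) against N2 had 6. With a replicate block within each genotype, N2 had 9 calls from early to middle, 5 from middle to late and 4 from early to late. The blocks moved no other count by over 1.5 times. Same-numbered arrays deviated together with a mean r of 0.068 in N2, 0.09 in mex-3/skn-1(RNAi), 0.115 in pie-1 embryos and 0.273 in pie-1/pal-1(RNAi) and a lowest r of -0.48, compared with a mean of -0.084 for different numbers in the last genotype. Averaged by replicate number, an array's r was highest with its own number for 6 of 19, 8 of 28, 17 of 26 and 26 of 33 arrays. In pie-1/pal-1(RNAi) the share of same-number pairs above the limit for pairing was 0.844, but not every pair passed it in any genotype. The numbers were therefore not used to pair arrays in the main fit. A rule that every pair must pass is strict, so it does not show that same-numbered arrays are unrelated. In pie-1/pal-1(RNAi) they deviated together more than arrays of different numbers.

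Narrower windows gave 18 calls for late against middle in N2, 23 in mex-3/skn-1(RNAi) and 19 in pie-1, 8 and 20 for middle against early in mex-3/skn-1(RNAi) and pie-1, and 2 and 1 for the interactions of mex-3/skn-1(RNAi) and pie-1/pal-1(RNAi). Times were also split by the naming of N2 replicates, so that only N2 arrays of 1 kind entered a fit. With 0, 41, 66, 101 and 143 min alone, N2 was left with lettered arrays. Late against early then gave 9 in N2 and 12 in pie-1, middle against early 23 in pie-1, and late against middle 4 in mex-3/skn-1(RNAi). The mutants against N2 then gave 12, 1 and 7 early and 6, 1 and 1 late, in the order mex-3/skn-1(RNAi), pie-1 and pie-1/pal-1(RNAi), and the mex-3/skn-1(RNAi) interaction gave 0. With the other 5 times alone, where N2 has numbered arrays only, N2 gave 5 for middle against early and 10 for late against middle. Late against early gave 16, 11 and 17 in the mutants. There mex-3/skn-1(RNAi) gave 3 for middle against early, 20 for late against middle and 3 for the interaction, pie-1 gave 6 for middle against early and 1 late against N2, and pie-1/pal-1(RNAi) gave 1 early and 1 late against N2 and 0 for the interaction.

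Without 7 arrays of high adult or sperm markers the interactions gave 2 in mex-3/skn-1(RNAi) and 4 in pie-1/pal-1(RNAi). With no fold minimum N2 had 35 late against early, 37 middle against early and 43 late against middle. The mutants had 31, 37 and 39 late against early, 18, 36 and 29 middle against early, 42, 41 and 47 late against middle, 43, 21 and 38 against N2 early, 28, 20 and 14 against N2 late and 10, 1 and 9 in the interactions. Late pie-1/pal-1(RNAi) against pie-1 then gave 2 and mex-3/skn-1(RNAi) against pie-1/pal-1(RNAi) 11. Within scan days, late against middle gave 12 and 0 in N2 and 17 on a pie-1/pal-1(RNAi) day.

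Leaving out the arrays of 1 replicate at a time, calls ranged from 0 to 3 and from 1 to 4 in the interactions of mex-3/skn-1(RNAi) and pie-1/pal-1(RNAi), from 4 to 9 for early and 0 to 1 for late mex-3/skn-1(RNAi) against N2, from 0 to 1 for pie-1 against N2 in either window and from 0 to 2 for late pie-1/pal-1(RNAi). The mex-3/skn-1(RNAi) counts ranged from 3 to 8 for middle against early and from 6 to 13 for late against middle.

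The late median of the members in mex-3/skn-1(RNAi) against N2, -0.314, turned to 0.099 after quantile normalization and 0.286 after centring on bright probe sets. The late medians of pie-1 (-0.209) and pie-1/pal-1(RNAi) (-0.117) also turned, to 0.14 and 0.048 after quantile normalization and 0.171 and 0.132 with bright centring. Medians close to 0 changed sign as well. Among named genes the sign changed in mrps-5, at values that were not called. Its late difference of mex-3/skn-1(RNAi) from pie-1/pal-1(RNAi) was -0.1769, but 0.2196 after quantile normalization, 0.1737 with bright centring, 0.1786 with narrow windows, 0.1064 at the other 5 times and from -0.3478 to 0.0701 without single replicates (highest without replicate 1 of pie-1/pal-1(RNAi)). At 0, 41, 66, 101 and 143 min its mex-3/skn-1(RNAi) interaction was -0.2454 and its change there from early to late -0.2977, and at all times that change ran from -0.0474 to 0.3872 without single replicates. From early to middle there it was 0.0571 with the shared block, 0.1264 with scan day, 0.1168 at the other 5 times and from -0.3384 to 0.0357 without single replicates. At the other 5 times the pie-1 interaction was 0.1294. For late pie-1/pal-1(RNAi) against pie-1 it was 0.0042 with arrays centred on all probe sets, 0.0072 with GAPDH, 0.0085 without 4 arrays of high mex-3, 0.124 at the other 5 times and from -0.2525 to 0.1076 without single replicates. From early to late in pie-1/pal-1(RNAi) it was -0.0173 with the block within genotypes, -0.0502 with scan day, -0.0128 without those 4 arrays, -0.0309 with narrow windows, -0.2577 at the other 5 times and from -0.074 to 0.1042 without single replicates. Of single-gene results, 6391 of 6633 kept direction and side of the threshold, 158 lost and 55 gained a call.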
